A study of Mus musculus with 4 samples.

Results

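Open chromatin was mapped by ATAC-seq, a method that uses the Tn5 transposase to place sequencing adapters in accessible DNA, and the peaks described here lay in gene deserts, the long stretches of the genome that hold no protein-coding gene. A peak was counted as a gene desert peak where it lay on an autosome, outside every protein-coding gene body and over 200 kb from every protein-coding start site of the GENCODE M21 annotation (build mm10). The rule set no distance to the ends of genes. It used positions only, and it gave 9276 members among the 128055 peaks of the table (7.24%). They were compared with 43785 other intergenic peaks, which lay outside protein-coding gene bodies at more than 1 kb and at most 200 kb from a start site.

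The cells were mesenchymal stem cells (MSCs) from the bone of wild-type male C57BL/6N mice, 3 to 5 months old, grown in low oxygen and sorted as CD45-/Ter-119-/Sca-1+/CD140a+ cells. One group was kept in hypoxia (2% O2) and the other was moved to normoxia (21% O2) for a week before the assay, with 2 libraries in each group. The study calls them independent experiments, but no source used here says which animals went into which library, so the spread between the 2 libraries of a group may be partly technical. Neither group received a drug or carried a transgene, both had been expanded in culture, and all fold changes given here are normoxia over hypoxia.

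Gene deserts are known for holding enhancers that act on distant genes, often on a gene for a developmental regulator at the edge of the desert, through looping of the chromatin. Such distal elements are bound by transcription factors like AP-1, TEAD, RUNX and C/EBP, whereas CTCF marks insulators and the anchors of loops. In bone, the deserts beside Sox9 and Bmp2 are textbook cases of long regulatory domains. Members are named below by their protein-coding neighbours, which gives their position and not their target.

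A few members are shown as sequence, since they carry the contrasts described below. They are the strongest desert peak and the peak with the lowest limma p among closing and among opening members. The others are the member farthest from any protein-coding start site and the strongest members beside Sox9 and Myc. Each run is the central 300 bases of the peak, read 5′ to 3′ on the + strand of the RefSeq copy of GRCm38 (mm10), and its capitals mark every match to 1 of the 8 motifs searched.
Bcl11b desert, strongest, chr12:107754601-107754900: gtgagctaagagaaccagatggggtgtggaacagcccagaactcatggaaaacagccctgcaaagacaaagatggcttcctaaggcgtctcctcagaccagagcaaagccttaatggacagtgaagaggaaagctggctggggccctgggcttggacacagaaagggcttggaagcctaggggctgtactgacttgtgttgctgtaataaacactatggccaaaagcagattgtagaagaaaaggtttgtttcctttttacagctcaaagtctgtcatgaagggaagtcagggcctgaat
Sipa1l2 desert, closing, chr8:125286601-125286900: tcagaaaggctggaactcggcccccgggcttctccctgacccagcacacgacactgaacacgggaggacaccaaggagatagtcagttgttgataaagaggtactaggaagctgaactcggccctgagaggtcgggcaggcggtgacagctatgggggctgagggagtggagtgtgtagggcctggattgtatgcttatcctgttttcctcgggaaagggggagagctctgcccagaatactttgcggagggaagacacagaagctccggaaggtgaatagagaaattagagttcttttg
Stmn2 desert, opening, chr3:8245751-8246050: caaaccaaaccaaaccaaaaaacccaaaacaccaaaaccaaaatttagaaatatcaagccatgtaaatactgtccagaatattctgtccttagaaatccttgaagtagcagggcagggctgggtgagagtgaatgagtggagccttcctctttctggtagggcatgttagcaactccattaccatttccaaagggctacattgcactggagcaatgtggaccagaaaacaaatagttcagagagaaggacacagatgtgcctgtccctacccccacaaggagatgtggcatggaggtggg
Pcdh9 desert, farthest, chr14:91326651-91326950: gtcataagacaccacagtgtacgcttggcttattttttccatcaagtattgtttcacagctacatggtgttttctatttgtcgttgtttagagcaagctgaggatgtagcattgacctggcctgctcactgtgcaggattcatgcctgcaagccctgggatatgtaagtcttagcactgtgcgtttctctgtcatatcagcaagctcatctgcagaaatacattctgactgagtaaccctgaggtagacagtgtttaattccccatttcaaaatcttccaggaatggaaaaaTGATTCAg
Sox9 desert, strongest there, chr11:111961651-111961950: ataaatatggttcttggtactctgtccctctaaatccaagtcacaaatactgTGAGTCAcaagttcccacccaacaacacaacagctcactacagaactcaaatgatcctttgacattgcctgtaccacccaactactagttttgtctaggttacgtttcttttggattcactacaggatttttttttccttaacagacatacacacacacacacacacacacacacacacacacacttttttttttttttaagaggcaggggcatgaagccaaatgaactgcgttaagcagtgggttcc
Myc desert, in Pvt1, chr15:62328201-62328500: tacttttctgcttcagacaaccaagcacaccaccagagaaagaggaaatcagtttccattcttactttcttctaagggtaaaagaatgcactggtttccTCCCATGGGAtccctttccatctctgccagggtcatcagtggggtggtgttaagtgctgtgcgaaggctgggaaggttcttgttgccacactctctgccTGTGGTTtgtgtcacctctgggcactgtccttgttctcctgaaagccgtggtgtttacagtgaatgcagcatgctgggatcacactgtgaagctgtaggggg
The letters searched on both strands were TGANTCA for AP-1, ACATTCC for TEAD, TGTGGTT for RUNX, TTGCNNAA for C/EBP and ACGTG for the hypoxia response element, with longer consensus letters for NFI, EBF and CTCF. The capitals in the Pcdh9 and Sox9 sequences are AP-1 matches, those in the Myc sequence an EBF match followed by a RUNX match read on the + strand, and the first 3 sequences hold no match. Such a match describes letters and is not a bound site, and ACGTG is also part of the letters of E-box sites.

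The deposited value of a peak is its number of reads, scaled to the size of the library but not to the width of the peak, so wide peaks have high values and a value is compared between libraries, not read as a density. Library totals recovered from the values ranged from 26680936 to 29965523 reads, and the median member held 33 and 39 reads in hypoxia, 28 and 35 in normoxia. Peaks on the nuclear chromosomes took 49.2% and 53.2% of the library total in hypoxia against 31.0% and 35.2% in normoxia, a difference between the groups that runs through every value, and its part in the results was not tested. Values were therefore scaled by relative log expression (RLE) size factors, 1.13 and 1.23 in hypoxia and 0.81 and 0.89 in normoxia, which moved the median log2 fold change over all peaks from -0.44 as deposited to -0.004. Promoter peaks were present for 9 of 10 MSC marker genes, all but Lepr, with summed values of 897 to 1653. Of 7 blood markers 4 had a promoter peak and Ptprc, Cd3e and Itgam had none, and of 5 endothelial markers 3 had one and Cdh5 and Emcn had none. The summed blood values were 102 to 122 in hypoxia and 71.2 to 90.4 in normoxia, and the endothelial ones 86.3 to 87.7 and 52.1 to 69.4.

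Open chromatin was sparse in the deserts. The sequence that meets the rule covered 526.9 Mb, 22.0% of the sequenced autosomal genome, and it held 17.6 peaks per Mb against 50.8 per Mb for the other intergenic peaks. On single chromosomes the density ran from 10.8 per Mb on chromosome 6 to 31.9 per Mb on chromosome 13. The nearest neighbouring peak lay at a median of 5600 bp from a member and 3100 bp from another intergenic peak, and 7.50% of members against 1.09% of other intergenic peaks had no peak within 50 kb. Members were still mostly in company, since 65.0% had a neighbour within 10 kb (83.4% of other intergenic peaks).

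Members resembled other intergenic peaks in size. Their median width was 900 bp, as in the other intergenic peaks, with the middle 80% from 400 to 1900 bp and extremes of 100 and 15400 bp. The median of the mean value over the 4 libraries was 11.8 for members, 12.8 for other intergenic peaks and 14.3 for all peaks, and member values ran from 0, in 2 peaks listed at 0 in every library, to 366. In sequence the members differed more: their median GC content was 41.9% against 45.5%, with 0.68 against 1.0 CpG per 100 bases and 13.2% against 15.4% of bases masked as repeats. A GENCODE long non-coding RNA gene overlapped 1678 members (18.1%, against 15.1% of other intergenic peaks), a pseudogene 0.798% (1.55%), and 24 members lay within 50 kb of an assembly gap. In 8897 members chromstaR, the peak caller, had assigned the peak to both groups, in 377 to hypoxia only (4.06%, against 6.09% of other intergenic peaks) and in 2 to normoxia only. The hypoxia-only members were weak and narrow, with a median value of 1.48 and a median width of 200 bp.

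Motif letters were counted in the central 300 bp of each peak. AP-1 letters were found in 29.1% of members, in 23.4% of other intergenic peaks weighted to the same mean values and in 20.6% of all peaks. CTCF letters went the other way, with 1.74%, 5.31% and 4.03%. For the other factors the same 3 shares were 21.7%, 16.9% and 15.8% for C/EBP, 12.9%, 10.9% and 10.1% for RUNX, and 9.97%, 7.85% and 7.18% for TEAD, all highest in the members. Letters of the hypoxia response element, the core bound by hypoxia-inducible factors, were found in 11.6%, 14.2% and 14.9%, and those of EBF in 0.819%, 1.07% and 1.03%. NFI letters were rare everywhere (0.0431% of members, 0.0383% of all peaks). Since AT-rich sequence favours some letters, the shares were also taken in other intergenic peaks weighted to the same mean values and GC content, which gave 25.8% for AP-1, 19.1% for C/EBP, 4.70% for CTCF and 12.7% for the hypoxia response element. The gaps for AP-1 and C/EBP were smaller there and that for CTCF stayed near its size.

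The question put to these peaks was whether accessibility far from protein-coding start sites moved with oxygen as it did nearer to them. As deposited, the median member value came to 11.7 and 13.3 in the hypoxia group against 10.5 and 11.7 in normoxia. Other intergenic peaks weighted to the members' mean values had medians of 12.4 and 13.6 against 10.1 and 11.01. Members were thus the weaker set in both hypoxia libraries and the stronger set in both normoxia libraries. Because the weighting used the mean over all 4 libraries, a deficit in hypoxia has to be largely balanced by an excess in normoxia. The opposite signs are therefore not separate findings, and only the difference between the groups can be read. On the RLE-scaled log2(value + 1) scale, the members' median minus the matched median was -0.08 and -0.03 in hypoxia but 0.05 and 0.08 in normoxia, which makes -0.06 ± 0.031 against 0.06 ± 0.021 (mean ± SD, n = 2 each). The difference between the groups was 0.12 with a pooled SD of 0.027, and the 2 groups did not overlap. Medians here move in steps of whole reads, so this SD is a coarse measure of the spread between libraries, as is the one below. With 2 libraries in each group the smallest two-sided p an exact permutation test allows is 0.333, so no such test was used. When GC content was matched too, the 4 library values were -0.04, -0.03, 0.00 and 0.04, and the difference was 0.06 with a pooled SD of 0.020.

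**Figure D1:**
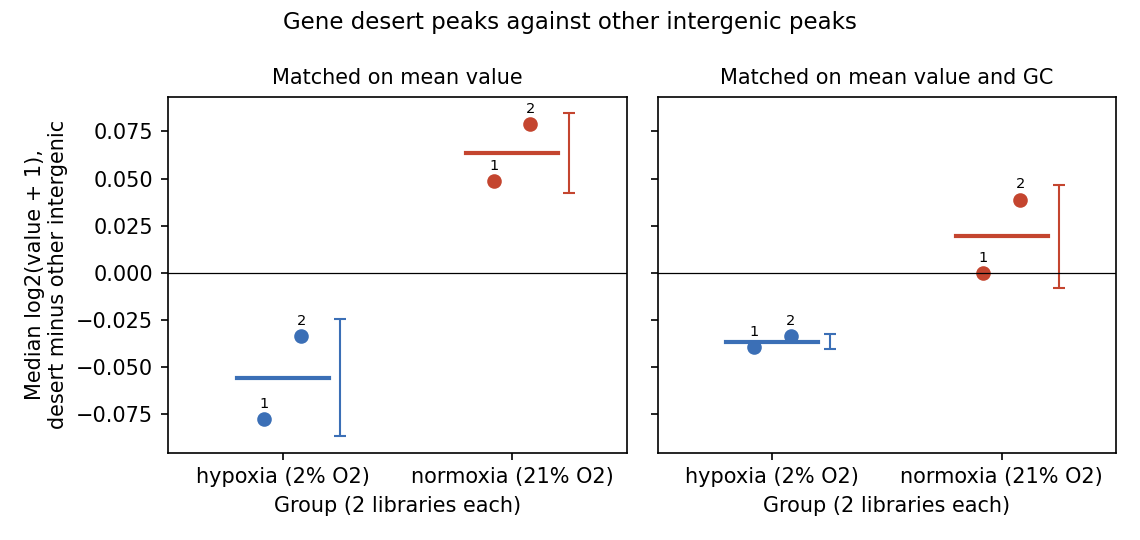
Median log2(value + 1) after RLE scaling of gene desert peaks minus that of other intergenic peaks (y axis) in each library (points, numbered as replicates 1 and 2), with the group mean (bar) and its SD (error bar). Both normoxia libraries sit above both hypoxia libraries, from -0.08 to 0.08 when matched on mean value (left) and from -0.04 to 0.04 when GC content is matched too (right).

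Peak by peak, the median log2 fold change was 0.12 in members, 0.06 in matched other intergenic peaks, 0.03 in all other intergenic peaks and -0.004 over all peaks. A fold change above 0 was found in 60.3% of members, 55.5% of matched intergenic peaks and 49.6% of all peaks. As deposited, without size factors, the member median was -0.31, that of matched intergenic peaks -0.37 and that of all peaks -0.44, so the direction of the members on their own turned with the scaling while their place above the other peaks did not. The gap between members and matched peaks was thus 0.06 peak by peak, against 0.12 when taken above from the medians of each library. The gap of 0.06 came to 0.03 when GC content was matched too, 0.02 without hypoxia replicate 1 and 0.11 without hypoxia replicate 2. It was above 0 in 20 of 20 bands of mean value, from 0.01 to 0.11.

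**Figure D2:**
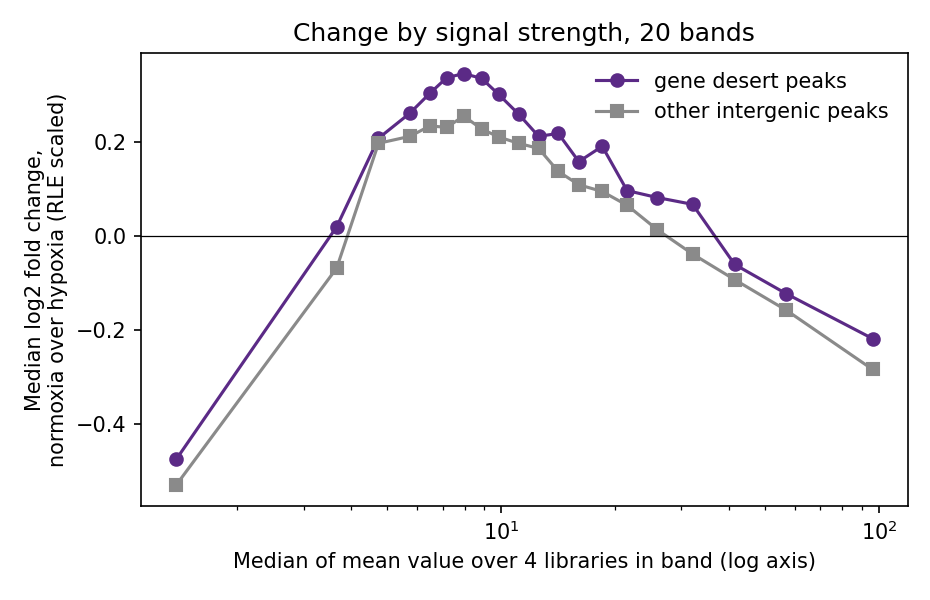
Median log2 fold change, normoxia over hypoxia after RLE scaling (y axis), in 20 bands of mean value that hold equal numbers of gene desert peaks (x axis, log scale, placed at the members' median value in each band). The gene desert curve lies above that of the other intergenic peaks in all 20 bands, by 0.01 to 0.11, and both fall from middle to high values. The bands are set by mean value only, and GC content is not matched.

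Among the members, limma called 157 closing (lower in normoxia, 1.69%) and 350 opening (higher in normoxia, 3.77%) at a false discovery rate (FDR) under 0.01, where over all 128055 peaks the shares were 4.57% closing and 1.77% opening. The closing share thus lay below the background and the opening share above it, and 69.0% of their calls were opening against 35.5% in other intergenic peaks and 27.9% over all peaks. In other intergenic peaks of the same mean value the shares were 2.65% closing and 1.81% opening, and with GC content matched as well 2.20% and 2.64%. Without size factors the same test called 1339 members closing and 102 opening (24.0% and 0.391% over all peaks), so the split of calls rests on the scaling. At an unadjusted limma p under 0.05, 850 members were lower (9.16%) and 1782 higher (19.2%) in normoxia, where over all peaks 16.8% were lower and 12.5% higher. Without either one of the hypoxia replicates limma called 0 members and 0 of all peaks, and only unadjusted p-values under 0.05 can then be counted. Without replicate 1 these gave 626 lower (6.75%) and 1036 higher (11.2%) members, beside 10.8% and 8.07% over all peaks. Without replicate 2 the members had 414 lower (4.46%) and 1432 higher (15.4%), beside 10.4% and 8.58%. Without normoxia replicate 2 the calls were 214 closing and 214 opening (6.35% and 1.21% over all peaks).

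Counted without a test, the normoxia pair lay wholly below the hypoxia pair in 47.3% of members as deposited (59.5% of all peaks) and wholly above it in 11.3% (6.94%). After scaling, 1852 of the 9276 members lay below without overlap (29.6% of all peaks) and 3345, or 36.1%, above (27.4%).

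Closing and opening members differed in strength, width and base composition. The closing ones were strong and wide, with a median value of 66.8 and a median width of 1700 bp, and their fold changes were moderate, with a median log2 of -0.75 (-1.98 to -0.39) and 29 of 157 past 2-fold. Opening members had a median value of 13.8 (2.77 to 110) and a median width of 900 bp, and a median log2 fold change of 1.21 (0.57 to 2.55), with 259 of 350 past 2-fold. The median GC content was 44.3% in closing, 39.5% in opening and 42.0% in uncalled members, and AP-1 letters were found in 24.8%, 16.3% and 29.7% of them. In the other intergenic peaks the AP-1 shares had the same order, 20.7%, 16.9% and 23.1%. Closing and opening peaks there had median values of 70.2 and 15.3, widths of 1900 and 1000 bp and GC content of 47.2% and 42.3%. The contrasts in strength, width and base composition were thus not particular to the members. Of the 2702 members with AP-1 letters 57 opened (2.11%), and of the 6574 without them 293 did (4.46%). CTCF letters were found in 161 members, of which limma called 4 opening and 0 closing. At an unadjusted limma p under 0.05, 17 of them were higher and 6 lower. Among all members 3.77% opened and 1.69% closed, and 19.2% were higher and 9.16% lower at that p.

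Signal strength and base composition both went with the change. Members were split by mean value into deciles, where the median log2 fold change was -0.22 in the weakest decile, in which a single read weighs much, 0.34 in decile 4 and -0.17 in the strongest, which held 96 of the 157 closing members. These 96 were 10.3% of that decile, against 16.3% closing among other intergenic peaks split at the same values. The 3195 members of lowest GC content had a median of 0.23, with 194 opening and 23 closing members. The 2993 of middle GC content had 0.12, with 108 and 50, and the 3088 of highest GC content 0.02, with 48 opening and 84 closing. Other intergenic peaks split at the same GC values had medians of 0.15, 0.09 and -0.01, each below that of the members. After cyclic loess, a scaling that evens out the trend with signal strength, the members' median was 0.06 against -0.001 in matched intergenic peaks.

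The change also went with distance from protein-coding start sites. The median log2 fold change was 0.08 in the 3864 members at 200 to 300 kb, 0.13 in the 3458 at 300 to 500 kb, 0.18 in the 1685 at 500 to 1000 kb and 0.32 in the 269 beyond. The opening share rose over these classes from 3.24% to 3.93%, 4.33% and 5.95%, and the closing share fell from 2.07% to 1.59%, 1.19% and 0.743%. Other intergenic peaks had 2.36% opening and 2.84% closing at 100 to 200 kb, and 1.43% and 3.25% at 1 to 10 kb. Over the 4 desert classes the median value fell from 12.6 to 9.25 and the median width from 900 to 700 bp. Median GC content fell from 43.0% to 38.2% and AP-1 letters rose from 27.3% to 42.8% of members. These classes were not matched on value or GC content. At the 200 kb limit itself nothing jumped: the 544 members up to 210 kb had a median value of 12.8 and a median log2 fold change of 0.05, and the 603 peaks just outside it, from 190 kb, 13.3 and 0.05.

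**Figure D3:**
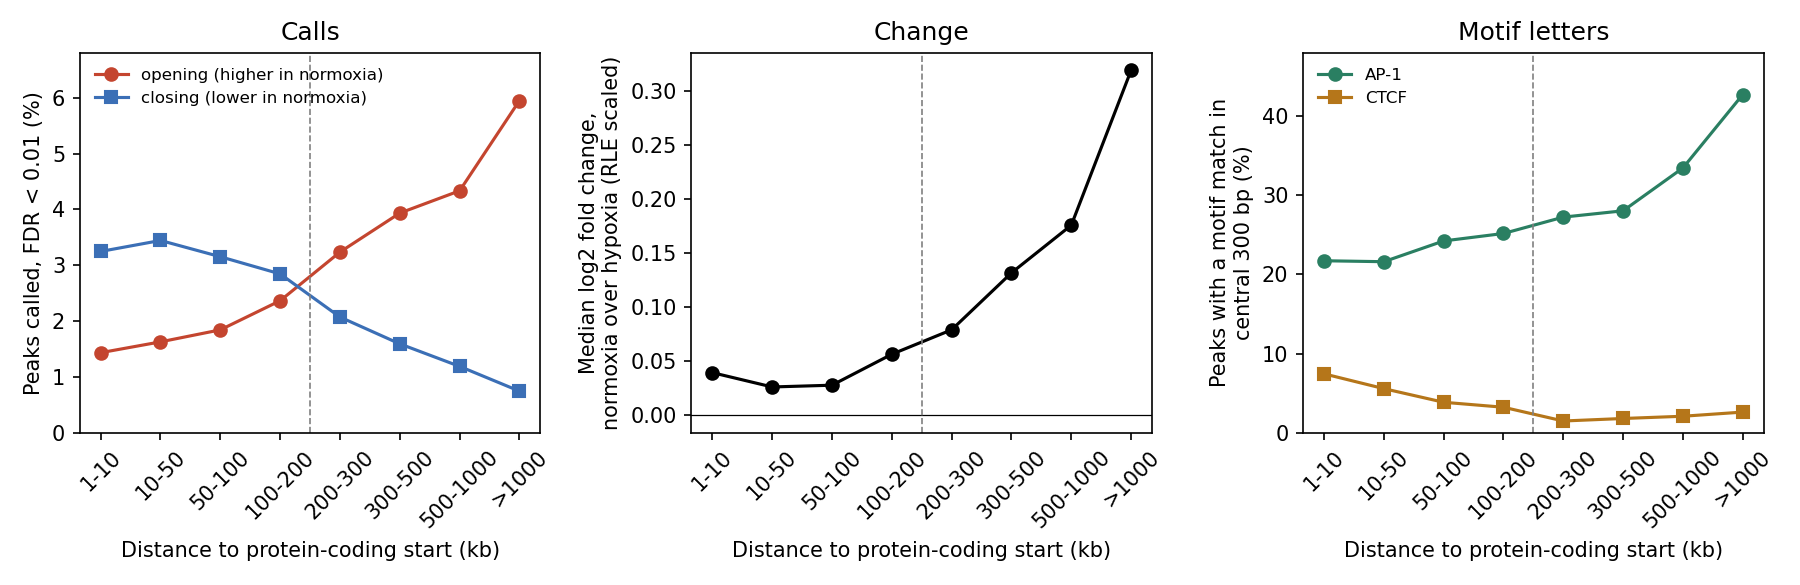
Peaks called closing and opening (left, %), median log2 fold change after RLE scaling (middle) and peaks with AP-1 or CTCF letters in their central 300 bp (right, %), by class of distance to the nearest protein-coding start site (x axis, classes evenly spaced, not to scale). The dashed line is the 200 kb limit, and to its right the opening share runs from 3.24% to 5.95% and AP-1 letters from 27.3% to 42.8%.

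A desert was taken as 1 gap between neighbouring protein-coding gene bodies. Of 906 such gaps with qualifying sequence 738 held members, and of the 707 with at least 0.1 Mb of it 93 held none. The 157 deserts with 20 or more members together held 5318 of them (57.3%). In 122 of these the median log2 fold change was above 0 after RLE scaling, and the medians ran from -0.37 to 0.52. The sign of such a median rests on the scaling, since that of all members was -0.31 as deposited. Closing members were found in 123 gaps and opening members in 219, with 43 gaps holding both.

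The desert with most members lay between Zeb2, a repressor of epithelial genes, and Acvr2a, an activin receptor, with 112 members in 3697 kb, of which 4 closed and 1 opened. Next came Myc to Gsdmc with 90 members, which surrounds the long non-coding RNA gene Pvt1 and had 1 closing and 3 opening, Nmbr to Cited2 with 78 (0 and 4), Cdh11 to Cdh5 with 74 (4 and 1) and Adamts5 to N6amt1 with 70 (0 and 2). Their median log2 fold changes were 0.04, 0.09, -0.04, -0.03 and 0.06. Between Kcnj2 and Sox9, the master regulator of cartilage, lay 59 members with a median of 0.23 and 0 limma calls in either direction. Of these, 4 were lower and 12 higher at an unadjusted limma p under 0.05. Shares among all members were 9.16% lower and 19.2% higher at that p (16.8% and 12.5% over all peaks). Limma called 1.69% of all members closing and 3.77% opening (4.57% and 1.77% over all peaks). At those shares few calls would fall in a set of this size. Between Epha7 and Map3k7 lay 58 members with 0.27 and again 0 limma calls, with 1 lower and 14 higher at an unadjusted p under 0.05. At the lower end were Adamts6 to Cwc27 (24 members, 4 closing, -0.37), Fn1 to Mreg (33 members, 1 closing, -0.34), beside the gene for fibronectin, and Tbx18 to Nt5e (23 members, 2 closing, -0.30). These gaps measured 134, 506 and 596 kb, and only 0.12, 0.16 and 0.20 Mb of them qualified. Distance was measured to start sites and not to gene ends, so members there can lie close to the end of a gene body. At the upper end stood Pcdh20 to Pcdh9 (20 members, 4 opening, 0.52), Lcorl to Slit2 (24 members, 3 opening, 0.51) and Mpdz to Nfib (27 members, 1 opening and 1 closing, 0.45). Fn1 to Mreg was also the most densely filled with 207 members per Mb of qualifying sequence, and Pcdh20 to Pcdh9 the most sparsely filled with 4.61.

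**Figure D4:**
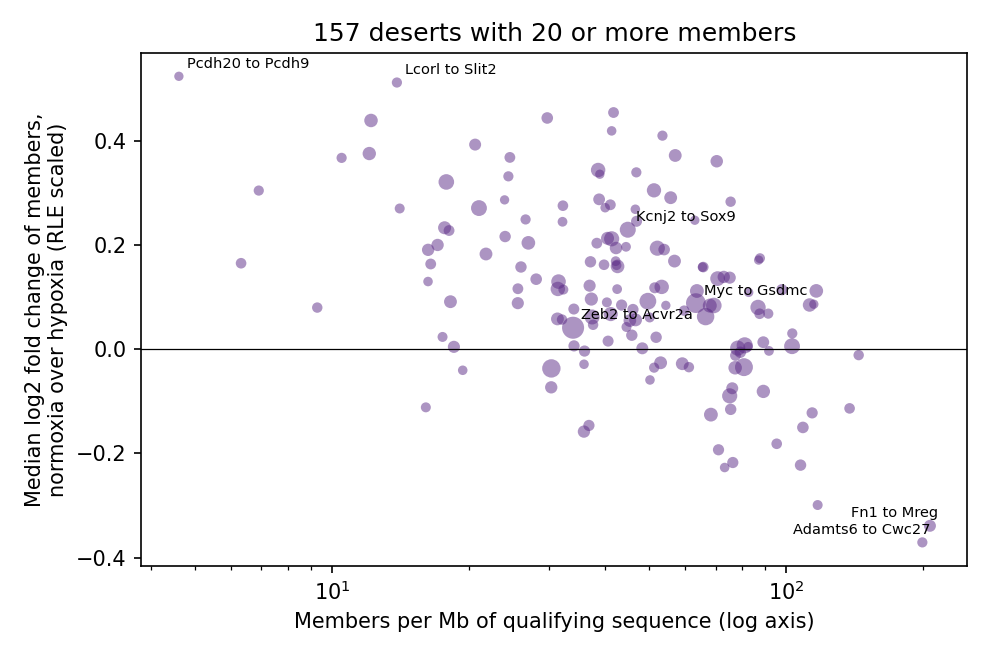
Each point is 1 of the 157 deserts with 20 or more members, its area set by the number of members, with the density of members (x axis, per Mb of qualifying sequence, log scale) and their median log2 fold change after RLE scaling (y axis). Medians run from -0.37 in the Adamts6 to Cwc27 desert to 0.52 in the sparse Pcdh20 to Pcdh9 desert, and 122 of 157 lie above 0.

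Members were flanked by 1297 protein-coding genes. Of a list of 83 skeletal and mesenchymal regulators 42 flanked members, 1027 in all (11.1%), with a median log2 fold change of 0.08, 22 closing (2.14%) and 26 opening (2.53%). The rest of the members had a median of 0.13, and other intergenic peaks of the same mean value as the 1027 had 0.05. By gene, Zeb2 flanked 112 members, Sox9 83 (median 0.18), the orphan nuclear receptor gene Nr2f2 59 (0.04), Id2, an inhibitor of basic helix-loop-helix factors, 47 (0.30, with 6 opening) and Irx1 47 (-0.02). Runx1 flanked 32 members with a median of 0.01, Runx2, the master regulator of bone formation, 19 with -0.01, and the bone morphogen gene Bmp2 12 with 0.26. The 27 members beside Cxcl12, the niche chemokine of marrow stroma, had -0.20, and the 44 beside Ebf1 had -0.13 with 1 opening. Limma called 0 members beside Runx2, Bmp2 and Cxcl12. At an unadjusted limma p under 0.05 these had 1, 0 and 7 lower and 0, 3 and 5 higher. Among all members 9.16% were lower and 19.2% higher at that p. With 1.69% of all members called closing and 3.77% opening, few calls would fall in sets of this size.

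Of a second list, 68 genes of neuronal adhesion and synapses that deserts often border, 53 flanked 751 members (8.10%). Their median log2 fold change was 0.22 against 0.11 in the rest of the members and 0.10 in other intergenic peaks of the same mean value, with 4 closing (0.533%) and 32 opening (4.26%). They were weaker, with a median value of 9.83, and held AP-1 letters in 34.5%, against 26.1% beside the skeletal genes. Adgrl2 flanked 83 of them (0.14), Flrt2 77 (0.32, 5 opening and 1 closing), Epha7 73 (0.28), Cdh18 39 (0.20) and Pcdh7 37 (0.23).

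Some members lie in transcribed units that are not protein-coding in GENCODE. The long non-coding RNA gene 3110039I08Rik overlapped 41, 2610307P16Rik 29, Gm49317 29 and Pvt1 26. RefSeq places 100 members (1.08%) inside a protein-coding gene, with 19 in Zswim6, 11 in Ppargc1a and 10 each in Dpp10 and Tenm3, and the counts without these 100 were 157 closing and 347 opening.

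The strongest members were called closing, all 5 of them. The strongest, chr12:107750901-107758600, lay 244814 bp from Bcl11b, a zinc finger factor known from T cells and neurons, inside the long non-coding RNA gene Gm15208. It had values of 502 and 521 in hypoxia against 203 and 240 in normoxia, or 511 ± 13.5 and 222 ± 26.5 (SD, n = 2 each). The groups did not overlap, and the log2 fold change was -0.73 with a standard error (SE) of 0.09 (limma FDR 6.3e-06). A peak beyond Trps1, a repressor in cartilage and hair development, at chr15:50245701-50249100 and 578421 bp from the gene, had 335 and 446 in hypoxia against 141 and 174. The log2 fold change there was -0.82 (SE 0.11, limma FDR 9.31e-06). Beside Klf6, a Krüppel-like factor, chr13:6191101-6194900 had 402 and 456 against 169 and 234, with -0.63 (SE 0.11, limma FDR 0.000186). The other two, near Pcmtd1 and Zfp703, had -0.53 and -0.39, and of the 5 that near Trps1 stayed called after cyclic loess.

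Of the closing members named for their low p, chr9:41887001-41891400, 232897 bp from the sorting receptor gene Sorl1, had 145 and 167 in hypoxia against 57.7 and 52.7. Both normoxia values were far below the hypoxia ones, and the log2 fold change was -1.01 (SE 0.13, limma FDR 8.85e-06). The peak of the printed Sipa1l2 sequence, chr8:125285001-125288500, had 172 and 179 against 58.1 and 70.1, with -0.97 (SE 0.13, limma FDR 6.03e-06).

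Among opening members the lowest p fell at chr3:8245001-8246800, 262560 bp from Stmn2, a neuronal microtubule regulator. Its values, 30.1 and 22.4 in hypoxia, stood at 67.8 and 53.7 after the shift to normoxia, the reverse of the strong peaks. The log2 fold change came to 1.65 (SE 0.19, limma FDR 7e-07), and repeats made up 51.8% of it. A peak 262481 bp from Mc2r, the corticotropin receptor, had 15.9 and 12.9 against 37.5 and 35.0, and 1.73 (SE 0.21, limma FDR 2.5e-06). Near Mad2l1, a gene of the spindle checkpoint, chr6:66291101-66292400 had 26.5 and 28.2 against 49.5 and 55.7, and 1.38 (SE 0.17, limma FDR 2.87e-06). These 3 kept their calls after cyclic loess, with 1.73, 1.68 and 1.45, but not when either hypoxia library was left out, which ended every call.

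The member farthest from any protein-coding start lay 2558548 bp from Pcdh9, a protocadherin gene, at chr14:91326401-91327200. It had 10.3 and 12.9 in hypoxia against 15.7 and 20.02 in normoxia and was called opening, with 1.03 (SE 0.25, limma FDR 0.00496). That call was lost after cyclic loess (0.86, limma FDR 0.0273), without size factors (0.58, limma FDR 0.0782) and without any single library (limma FDR 0.0105 to 0.183). The next farthest, in the same desert, had values of 14.2 to 15.2 in all 4 libraries and did not pass (limma FDR 0.253). The one after that had 8.49 and 4.42 against 5.997 and 12.3, with overlapping groups.

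Within the richest deserts the strongest member closed in some and not in others. At chr2:48518801-48521800, 292309 bp from Acvr2a in the Zeb2 desert, the values were 268 and 315 in hypoxia against 110 and 169, and the log2 fold change was -0.61 (SE 0.12, limma FDR 0.00114). In the Cdh11 desert, beside the gene of a mesenchymal cadherin, chr8:103271901-103273900 had 159 and 183 against 67.1 and 81.8, with -0.72 (SE 0.12, limma FDR 0.000255). Cyclic loess ended both calls, with -0.24 (limma FDR 0.159) for the Acvr2a peak and -0.44 (limma FDR 0.0139) for the Cdh11 peak, and the Acvr2a call was also lost without normoxia replicate 1 (limma FDR 0.0113). The strongest peak of the Myc desert, chr15:62326901-62329800 in Pvt1, had 303 and 330 against 175 and 214 as deposited, but after scaling -0.23 (SE 0.10, limma FDR 0.134). Likewise the strongest of the Sox9 desert, chr11:111961001-111962600, 819624 bp from Sox9, had 87.4 and 103 against 55.1 and 58.7, with -0.26 (SE 0.14, limma FDR 0.213). The Nr2f2 and Id2 peaks had 0.04 and 0.09, and the Irx1 peak -0.34 (limma FDR 0.0401, above the threshold of 0.01).

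Of the strongest members beside the 5 neuronal genes none was called. The Flrt2 peak, 1181626 bp from its gene, had 121 and 139 against 97.8 and 134, with 0.30 (SE 0.13, limma FDR 0.112), and was called opening after cyclic loess (0.59). In all, of 27 named members 9 were called closing, 4 opening and 14 neither.

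**Figure D5:**
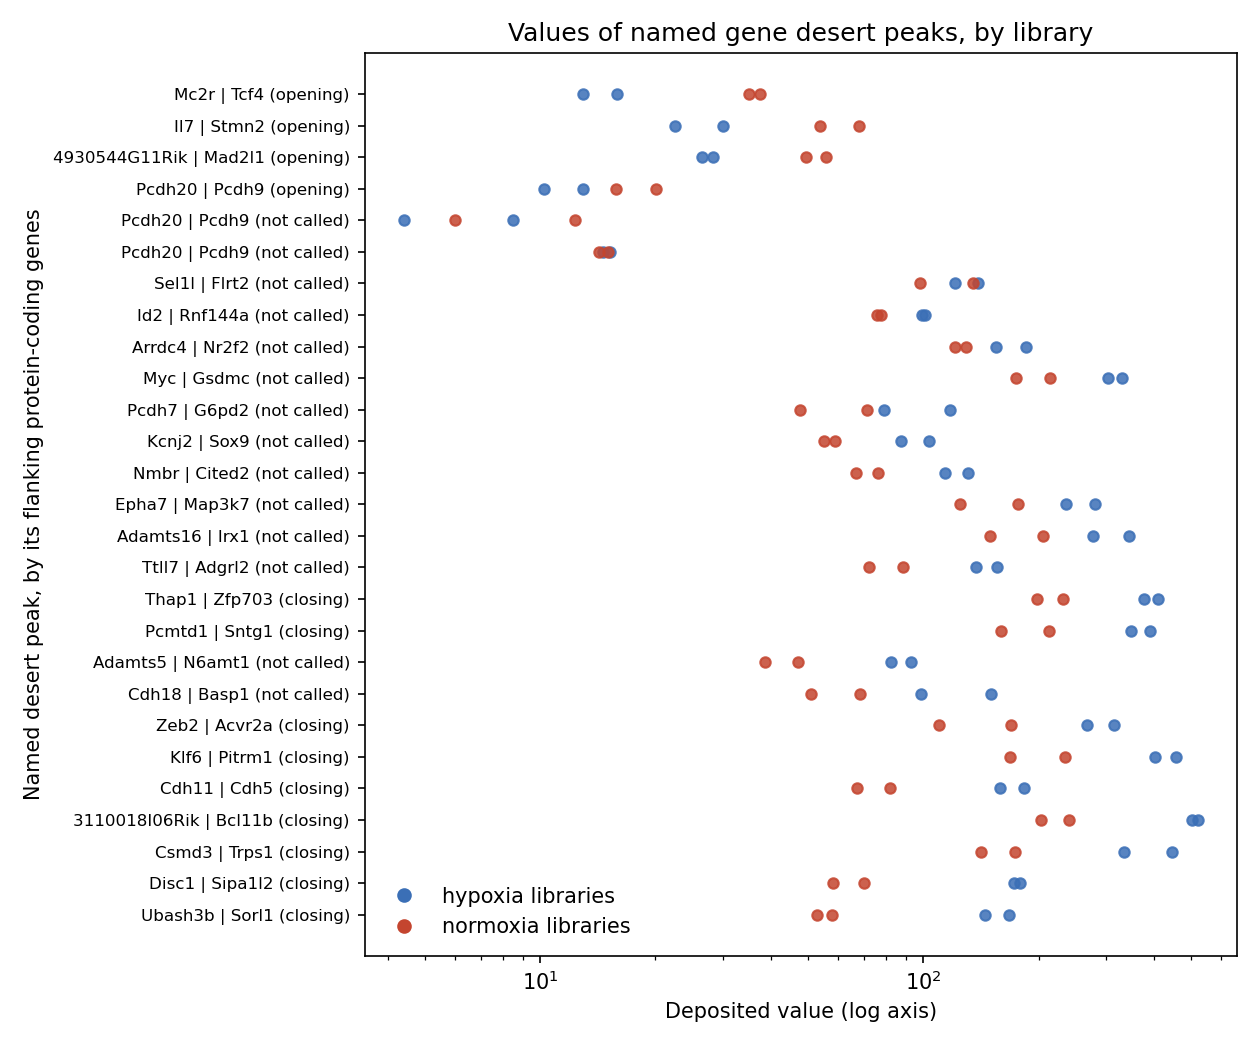
Deposited values (x axis, log scale) of the 27 named gene desert peaks in the 4 libraries, with 1 point per library (blue hypoxia, red normoxia) and 1 row per peak, labelled by its flanking genes and its call and ordered by fold change. Hypoxia points lie to the right of normoxia points in all 9 closing peaks and to the left in all 4 opening peaks. Peaks named for a low p were chosen without overlap between the groups, so this separation was partly fixed beforehand. Of all peaks, 59.5% had both normoxia values below both hypoxia values as deposited, and 6.94% had both above.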

How the data were processed

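ATAC-seq libraries of 2 hypoxia and 2 normoxia cultures were used. Reads had been mapped by the authors to mm10 (bowtie2) and cleared of duplicates (Picard), and peaks had been called jointly for the 4 libraries by chromstaR comparing the groups. The deposited signal of a peak, which the authors name RPKM, is its reads scaled to the library size, with no division by width. All values (100%) of every library came out as whole reads within 0.01 read, though it is unclear if a read here is a fragment or an end.

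Members, gene lists and tests were chosen with earlier results of these data known. Start sites and gene bodies came from GENCODE M21, and GC content, repeats (lower-case bases), assembly gaps and sequences from the RefSeq genome of the same build. No peak lay past a chromosome end (0), and 0 sample columns were left unused. Values were scaled by RLE size factors and tested as log2(value + 1) with limma 3.58.1 in R 4.3.3 (lmFit, eBayes with trend and robust, two-sided). P-values of all 128055 peaks were adjusted together (Benjamini-Hochberg), and the FDR limit was 0.01. The logarithm understates changes of low values. Other intergenic peaks were weighted to the members' distribution over 50 bins of mean value, or over 10 bins of mean value by 5 of GC content. Fits and weighting were tested on simulated data.

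The members named were the 5 with the highest mean value, the 3 closing and 3 opening with the lowest p among those of mean value 10 or more whose groups did not overlap, the 3 farthest from a start site, the strongest of each of the 5 deserts with most members, and the strongest beside the 5 genes of each list with most members. A gene was counted as flanking where it was the nearest protein-coding start on either side. Alternatives covered scaling, pseudocount, filter, test, left-out libraries, distance limit and matching. Removal of members inside RefSeq genes, and GC matching together with cyclic loess, were added after seeing the data. edgeR 4.0.16 was run on the recovered reads. One further marker gene and the sequence of one further peak are not reported here.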

Additional observations from a re-analysis of the deposited data

How the results depend on the processing

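The gap between gene desert peaks and other intergenic peaks of equal mean value, 0.06 on the log2 scale, kept its sign under every alternative run. It came to 0.028 with GC content matched too, 0.025 with GC matching and cyclic loess (chosen after seeing the data), 0.091 with no matching, 0.11 for members over 500 kb from a start site, 0.16 for the 466 members over 200 kb from the start of a GENCODE gene of any type, and 0.020 to 0.11 when single libraries were dropped. The members' median log2 fold change of 0.12 reversed to -0.31 without size factors. It was 0.39 at equal totals over peaks, 0.068 after quantile normalization, 0.062 after cyclic loess, 0.19 over 500 kb, 0.25 for the start sites of all genes, and 0.066 to 0.16 with libraries left out.

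The counts depended more on the processing than the gap did. Against 157 closing and 350 opening, they were 1339 and 102 without size factors, 28 and 1012 at equal totals, 40 and 148 after quantile normalization, 77 and 208 after cyclic loess, 394 and 547 over 100 kb (17611 members), 22 and 89 over 500 kb (1954 members), 4 and 17 for the start sites of all genes, and 406 and 879 at an FDR under 0.05. With limma's eBayes run without trend and robust, 0 and 0 were called (637 lower, 6.87%, and 1649 higher, 17.8%, at an unadjusted p under 0.05, against 11.2% and 11.6% of all peaks), and edgeR called 215 and 481. With libraries left out in turn, closing counts ran from 0 to 214 and opening counts from 0 to 240, with 0 calls without either hypoxia replicate. The 2 pseudocounts, the filter on mean value, edgeR, and leaving out members near gaps or in RefSeq genes kept each count within 1.5 times. Over all peaks the closing and opening shares were 24.0% and 0.391% without size factors, 0.842% and 6.87% at equal totals, 0.72% and 0.905% after quantile normalization, and 1.31% and 1.42% after cyclic loess. The cause of these shifts was not tested.

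With the replicate number as a block, 253 members were called closing and 554 opening (6.61% and 3.05% over all peaks), with the gap of 0.06 and the median of 0.12 as before. Deviations of same-numbered libraries correlated at 0.011 over all peaks, so the numbers were not taken as a pairing. Of the calls of named members, cyclic loess ended 7, among them that near Zfp703, which turned from -0.39 to 0.035, and added 1. The median member rests on 28 to 39 reads per library, which limits what single weak peaks can show.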

Other observations

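Chromosome by chromosome, the members' median log2 fold change was above 0 on 19 of 19 autosomes, from 0.02 on chromosome 6 to 0.18 on chromosome 16, and opening members outnumbered closing ones on 17 of them. These signs and counts rest on the RLE scaling, since the median of all members was -0.31 as deposited. Other intergenic peaks also had a median above 0 after scaling (0.03) and were not split by chromosome. Of all reads in nuclear peaks, members held 4.23% and 4.56% in hypoxia against 4.95% and 4.97% in normoxia. The other intergenic peaks also held more in normoxia, 26.6% and 26.2% against 24.9% and 25.3%. Neither share overlapped between groups, although the members' reads made up a smaller part of the whole library in normoxia (1.54% and 1.75%) than in hypoxia (2.08% and 2.43%).

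Members that overlap a long non-coding RNA gene had a median log2 fold change of 0.06, with 34 closing and 53 opening among 1678. The other 7598 had 0.14, with 123 closing and 297 opening. In the other intergenic peaks the same 2 medians were -0.01 and 0.04. Members with over 50% of masked repeats numbered 269, were weaker, with a median value of 7.35, and had 3 closing and 18 opening (6.69%), against 332 opening (3.69%) among the 9007 others. These repeat-rich members were assigned to hypoxia only in 16.7% of cases, against 3.69% of the others. In the other intergenic peaks the same 2 shares were 27.4% and 5.15%.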
